A study of Homo sapiens with 6 samples.

Results

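The lineage transcription factors that are used to separate the classical and basal-like subtypes of pancreatic cancer were examined in BxPC-3 cells. The 8 factors were GATA6, HNF4A, FOXA1, FOXA2, PDX1, TP63, SOX9 and SOX2, taken by gene symbol from the 26255 symbols in each file, and all 8 had a row in every file. BxPC-3 is an established human pancreatic adenocarcinoma cell line, known for loss of SMAD4. RNA was sequenced from 6 libraries of this single line: 2 of untreated cells (Parent), 2 of cells given a negative control RNA (NC-1) and 2 of cells given the microRNA miR-4711-5p, all at 36 h after the start of treatment. Nothing in the labels says that replicates came from separate cultures, so p-values measure the spread between libraries, which may be technical. The values were FPKM, fragments counted per unit of exon length and of mapped fragments, and levels of different genes are compared only on this per-length scale.

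GATA6, HNF4A, FOXA1, FOXA2 and PDX1 are factors of the endoderm and pancreas. In pancreatic tumors, GATA6 and HNF4A are markers of the classical, gland-forming subtype, and the FOXA proteins are pioneer factors that open chromatin for them. TP63 encodes p63, a p53-family protein that specifies the basal layer of stratified epithelia, and its presence marks squamous or basal-like pancreatic tumors. SOX2 is a stem cell and foregut factor that is often active together with p63 in squamous carcinoma, and SOX9 marks the pancreatic duct and its progenitors.

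The treatment duplex carries the mature strand given below, from RefSeq, with the seed (bases 2 to 8) in capitals. It is shown because microRNAs mostly recognize messenger RNAs through a match to the seed in the 3′ UTR. The gene of this microRNA lies on chromosome 1, and the mature strand spans 59733269 to 59733291 of GRCh38.p14, minus strand.

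miR-4711-5p: uGCAUCAGgccagaagacaugag

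The match to the seed was searched in annotated 3′ UTRs on GRCh37, the build of the authors' mapping, as CTGATGC (7mer-m8), TGATGCA (7mer-A1) or CTGATGCA (8mer, which holds both), on the transcript strand. None of the 3′ UTRs of the 8 factors held any of these strings (0 of 8 genes), while 2298 of 11186 tested genes with an annotated 3′ UTR did (20.5%). The absence of a match says only that these letters are not in the windows searched. The windows were 2774 nt long for the canonical transcript of TP63, 2029 nt for SOX9, 1813 nt for FOXA1, 1705 nt for GATA6, 1122 nt for SOX2 and 852 nt for FOXA2. In the coding sequence, 1 match each was found in FOXA2, SOX2 and some transcripts of HNF4A.

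FPKM summed to 550772 and 543074 in Parent, 515688 and 515348 in NC-1 and 493145 and 499659 with miR-4711-5p, so the sums differed by group. The steps between the lowest values gave depths of 0.752 to 1.21 relative to the first Parent library, with both miR-4711-5p libraries the deepest, while the absolute number of reads is unknown. The epithelial markers KRT7, KRT8, KRT18, KRT19, EPCAM and CDH1 were present at 28.3 to 1842 FPKM in all 6 libraries, and SMAD4 was listed at 0 in all of them. CDH1, the epithelial cadherin, was at 114 and 117 FPKM in Parent, 109 and 110 in NC-1 and 28.3 and 30.9 with miR-4711-5p (log2 fold change -1.93 against Parent and -1.86 against NC-1, limma BH-adjusted p = 2.8e-06 and 3.2e-06). The 6 epithelial markers summed to 5870 to 6250 FPKM in Parent, 5250 to 5530 in NC-1 and 5190 to 5250 with miR-4711-5p. All 4 leukocyte markers and 5 of 6 fibroblast markers stayed under 0.5 FPKM in every library. The exception, COL1A1, reached 2.35 FPKM. Of 4 acinar markers, CELA3A was listed at 0 throughout and CPA1 and CTRC stayed under 0.5 FPKM, whereas PRSS1, the trypsinogen gene, was at 0.684 and 1.57 FPKM in Parent, 2.73 and 2.62 in NC-1 and 3.18 and 5.10 with miR-4711-5p. The 4 acinar markers together summed to 0.816 to 1.57, 2.62 to 2.73 and 3.42 to 5.32 FPKM in the same order, and the part of these cell type markers in the results was not tested. All 3 endocrine markers were at or below 0.0504 FPKM.

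The BxPC-3 libraries held RNA of factors of both subtypes. Each library is a pool of many cells, so whether the same cells expressed both was not tested. In untreated cells TP63 was the highest of the 8, at a mean of 63.7 ± 4.85 FPKM (SD, n = 2), which was place 1425 among all 26255 symbols. FOXA1 followed at 21.4 ± 0.548 FPKM, GATA6 at 14.4 ± 0.188, FOXA2 at 12.5 ± 0.399, SOX2 at 11.2 ± 0.324 and SOX9 at 6.48 ± 0.121 (SD, n = 2 each). PDX1, at 0.200 ± 0.210 FPKM, and HNF4A, at 0.131 ± 0.0488 (SD, n = 2 each), were close to the floor. In Parent cells, the libraries of each factor lay apart from those of the next in this order, except for PDX1 and HNF4A, which overlapped.

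The order was partly different after transfection. TP63, FOXA1 and GATA6 kept the first 3 places in all 3 groups. SOX9 moved from place 6 in Parent to place 5 in NC-1 and place 4 with miR-4711-5p. It overlapped with SOX2 in NC-1 and with GATA6 in the miR-4711-5p libraries. HNF4A had the lowest mean in every group, but its libraries overlapped with those of PDX1 in Parent and in NC-1.

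**Figure D1:**
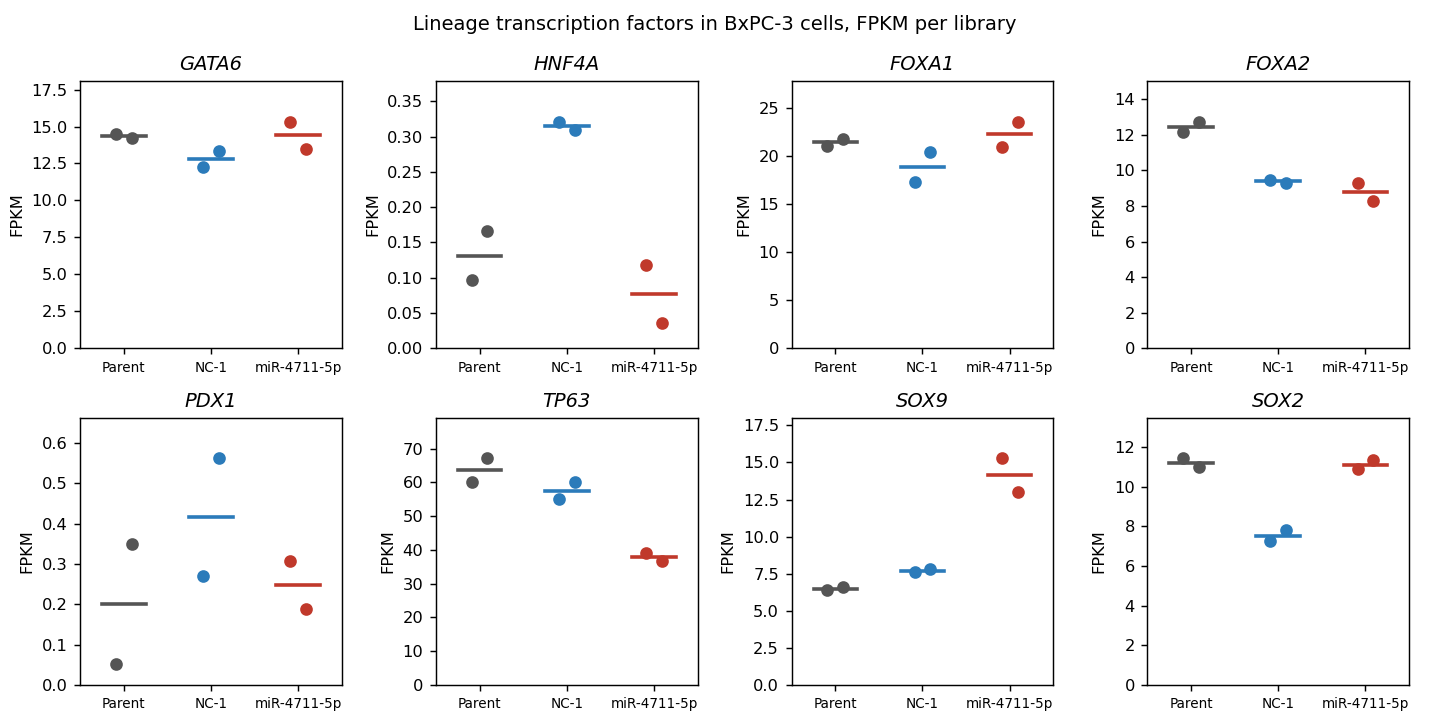
FPKM of the 8 lineage factors in each of the 6 BxPC-3 libraries (dots) with the group mean (line), each panel on its own linear axis from 0. TP63 is lower and SOX9 higher in both miR-4711-5p libraries than in all 4 others, SOX2 is lower in the NC-1 libraries alone, and HNF4A and PDX1 stay below 0.6 FPKM.

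The 3 groups were compared with limma on log2(FPKM + 1), over 12040 genes whose FPKM averaged 1 or more in the 6 libraries. A gene was called when its Benjamini-Hochberg (BH) adjusted p over all these genes was under 0.05. Of the 8 factors, 6 passed the FPKM filter, and HNF4A and PDX1 did not. Between miR-4711-5p and Parent, 1 factor was higher (SOX9) and 2 were lower (TP63 and FOXA2), and 3 of 6 were called. Of all genes tested in this comparison, 43.4% were called, 18.7% higher and 24.7% lower. Between miR-4711-5p and NC-1, 2 factors were higher (SOX9 and SOX2) and 1 was lower (TP63), against 39.6% of all genes called, 18.4% higher and 21.2% lower. Between NC-1 and Parent, 2 factors were lower (FOXA2 and SOX2) and none was higher, against 27.2% of all genes called, 12.1% higher and 15.1% lower. With libraries rescaled to equal FPKM sums, chosen after seeing the data, 4014 of all genes were higher and 1775 lower against Parent in place of 2255 and 2975, 2925 and 2083 against NC-1 in place of 2214 and 2549, and 2325 and 1000 between NC-1 and Parent in place of 1456 and 1823. The number of factors called is of the order of the background in each comparison. The comparisons share libraries, and their values are given side by side for each factor.

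**Figure D2:**
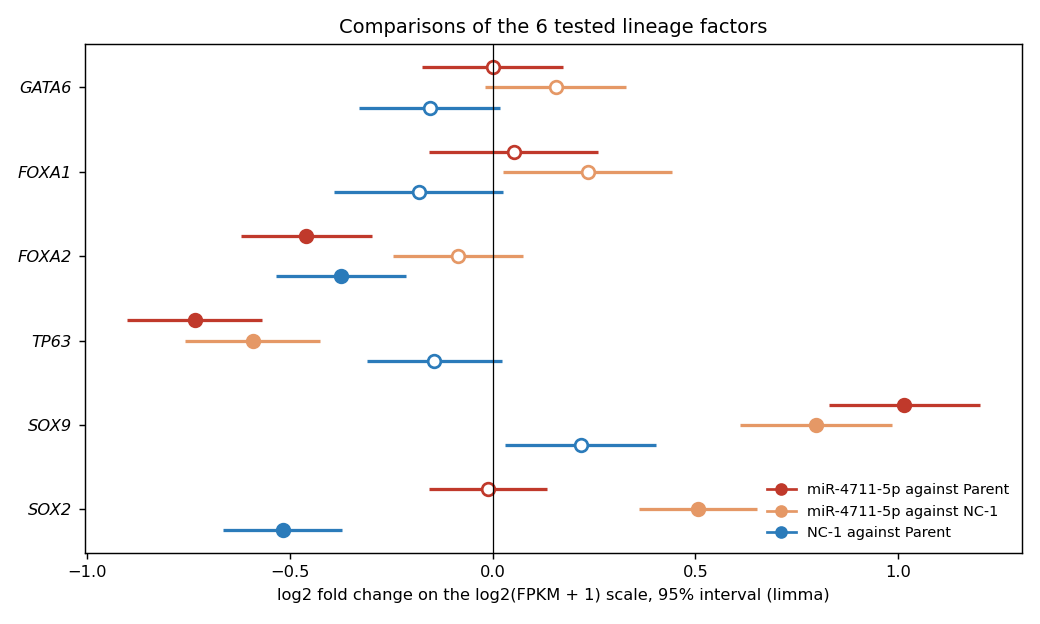
Log2 fold changes of the 6 tested factors on the log2(FPKM + 1) scale with 95% intervals from limma, for the 3 comparisons in colors; filled dots are called (adjusted p under 0.05) and open dots are not. TP63 and SOX9 are filled against both controls, in opposite directions, and GATA6 and FOXA1 are open throughout.

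TP63, which maintains basal epithelial identity, lies on chromosome 3 at 189349178 to 189615065 of GRCh37, plus strand. Its level was 60.2 and 67.1 FPKM in the Parent libraries, 55.0 and 60.1 in the NC-1 libraries and 39.0 and 36.6 in the miR-4711-5p libraries. The pair of miR-4711-5p libraries lay under all 4 controls, and the Parent and NC-1 libraries lay next to each other. The ratio of mean FPKM, written with a minus sign for a decrease, was -1.68 against Parent, with a log2 fold change of -0.73 (SE, the standard error, 0.07, limma BH-adjusted p = 0.00024). Against NC-1 the ratio was -1.52 and the log2 fold change -0.59 (SE 0.07, limma BH-adjusted p = 0.00073). NC-1 and Parent differed by -0.14 on the log2 scale, with a 95% interval from -0.31 to 0.02 (limma BH-adjusted p = 0.172). TP63 stayed the highest of the 8 factors with miR-4711-5p. The files give 1 value per gene, so the full-length and N-terminally truncated isoforms of p63, which start from different promoters, were not separated.

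TP73, the other p63-related gene of the family, was at 4.35 and 4.17 FPKM in Parent, 3.64 and 3.14 in NC-1 and 2.68 and 2.67 with miR-4711-5p. It was called lower against Parent (log2 fold change -0.52, limma BH-adjusted p = 0.00323) and not against NC-1 (log2 fold change -0.25, limma BH-adjusted p = 0.057).

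Genes known as targets of p63 or as partners in the basal program were lower with miR-4711-5p in most cases. Of the 32 genes of this list, 31 passed the filter. Against Parent, 24 were called lower and 3 higher, with a median log2 fold change of -0.64 beside -0.01 over all genes tested. Against NC-1, 24 were lower and 2 higher, with a median of -0.51 beside 0.0038 over all genes. Between NC-1 and Parent, 10 were lower and 3 higher, with a median of -0.11, and with equal FPKM sums 8 were lower and 5 higher. Of all genes tested, 24.7%, 21.2% and 15.1% were lower and 18.7%, 18.4% and 12.1% higher in these comparisons, in the same order. Library by library, the median log2 difference of the list from Parent came to -0.68 and -0.64 under miR-4711-5p and to -0.11 and -0.10 in NC-1. The list was put together from general knowledge, and 4 of its genes, KRT15, KRT6A and S100A2 among them, also stand on the basal-like list below.

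The decreases of the list included keratins of the basal and activated epidermis. KRT6A was at 694 and 660 FPKM in Parent, 425 and 430 in NC-1 and 238 and 249 with miR-4711-5p. Its log2 fold change was -1.47 against Parent (limma BH-adjusted p = 3.3e-06) and -0.81 against NC-1 (limma BH-adjusted p = 2.2e-05), and the difference of NC-1 from Parent, -0.66, was called as well (limma BH-adjusted p = 0.00042). KRT5, the basal keratin, followed the same order with 1445 and 1391, 982 and 897, and 531 and 562 FPKM. Its log2 fold change was -1.38 against Parent (limma BH-adjusted p = 5.9e-06) and -0.78 against NC-1 (limma BH-adjusted p = 7.1e-05). NC-1 was called lower than Parent for KRT5 too (log2 fold change -0.59, limma BH-adjusted p = 0.0011). Both keratins thus stood in 3 separate steps, with NC-1 between Parent and miR-4711-5p. Keratin genes have close copies, and reads shared between them were not measured.

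IL1A, an alarmin cytokine, rose against both controls. It was at 38.9 and 41.6 FPKM in Parent, 52.6 and 55.1 in NC-1 and 65.3 and 63.04 with miR-4711-5p, in 3 groups that did not overlap. Its log2 fold change was 0.66 over Parent and 0.25 over NC-1 (limma BH-adjusted p = 0.00010 and 0.0087). NC-1 was itself called higher than Parent for IL1A (log2 fold change 0.41, limma BH-adjusted p = 0.0029). The increase over NC-1 was no longer called without the first miR-4711-5p library, at 0.22.

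SOX9, the ductal progenitor factor, lies on chromosome 17 at 70117161 to 70122557, plus strand. It was at 6.40 and 6.57 FPKM in Parent, 7.62 and 7.78 in NC-1 and 15.3 and 13.0 with miR-4711-5p. The 3 groups did not overlap, and the miR-4711-5p libraries stood far above the others. SOX9 was 2.18-fold higher than in Parent, with a log2 fold change of 1.01 (SE 0.08, limma BH-adjusted p = 9.4e-05), and 1.84-fold higher than in NC-1, with a log2 fold change of 0.80 (SE 0.08, limma BH-adjusted p = 0.000327). The difference of NC-1 from Parent was 0.22, with a 95% interval from 0.03 to 0.40 (limma BH-adjusted p = 0.082). It was not called as deposited but passed when libraries were rescaled to equal FPKM sums (limma BH-adjusted p = 0.0404) or by median-of-ratios factors from genes of at least 10 FPKM (limma BH-adjusted p = 0.0489).

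SOX2, the foregut and squamous stem cell factor, is a single-exon gene on chromosome 3 at 181429713 to 181432224, plus strand, inside the non-coding gene SOX2-OT on the same strand. It was at 11.4 and 10.97 FPKM in Parent, 7.24 and 7.80 in NC-1 and 10.9 and 11.3 with miR-4711-5p. The NC-1 libraries were below all 4 others, and Parent and miR-4711-5p overlapped. NC-1 was lower than Parent by a ratio of -1.49 (log2 fold change -0.52, SE 0.06, limma BH-adjusted p = 0.00237), and miR-4711-5p was 1.48-fold higher than NC-1 (log2 fold change 0.51, SE 0.06, limma BH-adjusted p = 0.00084). Between miR-4711-5p and Parent the log2 fold change was -0.01, with a 95% interval from -0.16 to 0.14 (limma BH-adjusted p = 0.905), and its sign turned under both rescalings that were added, to 0.12 and 0.05. SOX2-OT was at or below 0.164 FPKM in all libraries.

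The ratio of TP63 to another factor within a library does not depend on the scale of that library. It was taken for SOX9, GATA6, FOXA1 and SOX2. FOXA2, the other factor called lower against Parent (log2 fold change -0.46), was left out, and a ratio to it would fall less. TP63 to SOX9 was 9.42 and 10.2 in Parent, 7.22 and 7.72 in NC-1 and 2.55 and 2.81 with miR-4711-5p. TP63 to GATA6 was 4.15 and 4.71, then 4.48 and 4.5, then 2.54 and 2.72 in the same order. TP63 to FOXA1 was 2.87 and 3.08, 3.19 and 2.95, and 1.86 and 1.56. TP63 to SOX2 was 5.27 and 6.12, 7.59 and 7.7, and 3.58 and 3.24. In each of the 4 ratios both miR-4711-5p libraries were the lowest. The 4 ratios share TP63, which was itself lower, so they are not separate results. None has a denominator that was called lower with miR-4711-5p, so their decreases follow in part from that choice. The ratios to SOX9 and to SOX2 also set Parent and NC-1 apart by more than the spread within them, with NC-1 lower for SOX9 and higher for SOX2, and those to GATA6 and FOXA1 overlapped.

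**Figure D3:**
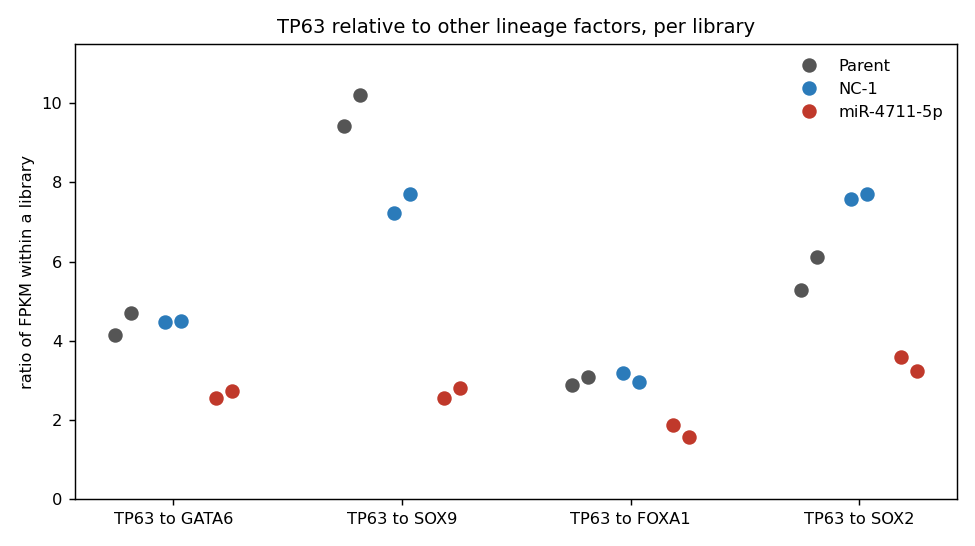
Ratio of TP63 FPKM to that of GATA6, SOX9, FOXA1 and SOX2 within each library (dots, 2 per group) on a linear axis from 0. The miR-4711-5p libraries are the lowest in all 4 ratios, and the TP63 to SOX9 ratio falls from 9.42 and 10.2 in Parent to 2.55 and 2.81. The ratio to FOXA2, which was called lower against Parent, is not shown.

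GATA6, the main marker of classical tumors, lies on chromosome 18 at 19749550 to 19782491, plus strand. It was at 14.5 and 14.2 FPKM in Parent, 12.3 and 13.3 in NC-1 and 15.3 and 13.5 with miR-4711-5p. The Parent libraries lay between the pair of miR-4711-5p libraries, and NC-1 was below both groups. The log2 fold change against Parent was 0.00056, with a 95% interval from -0.17 to 0.17 (limma BH-adjusted p = 0.998), and its sign depended on single libraries. Against NC-1 it was 0.16, with an interval from -0.02 to 0.33 (limma BH-adjusted p = 0.135). GATA6-AS1, which starts beside GATA6 on the other strand, was between 0.190 and 0.663 FPKM.

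FOXA1, a pioneer factor, lies on chromosome 14 at 38058757 to 38065264, minus strand. It was at 21.0 and 21.8 FPKM in Parent, 17.2 and 20.4 in NC-1 and 21.0 and 23.5 with miR-4711-5p. Parent and miR-4711-5p overlapped, and the NC-1 libraries were below both. The log2 fold change was 0.05 against Parent (95% interval from -0.16 to 0.26, limma BH-adjusted p = 0.665) and 0.23 against NC-1 (95% interval from 0.03 to 0.44, limma BH-adjusted p = 0.0718). The latter was called with the replicate number as a block (limma BH-adjusted p = 0.0286), with equal FPKM sums (limma BH-adjusted p = 0.0354) and without the second NC-1 library (limma BH-adjusted p = 0.0257).

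FOXA2, its endodermal paralog, lies on chromosome 20 at 22561636 to 22566093, minus strand. It was at 12.2 and 12.7 FPKM in Parent, 9.44 and 9.32 in NC-1 and 9.31 and 8.29 with miR-4711-5p. Both transfected groups were below Parent and lay close to each other. The ratio was -1.42 for miR-4711-5p against Parent (log2 fold change -0.46, SE 0.07, limma BH-adjusted p = 0.00177) and -1.33 for NC-1 against Parent (log2 fold change -0.37, SE 0.07, limma BH-adjusted p = 0.0090). Between miR-4711-5p and NC-1 the log2 fold change was -0.09, with a 95% interval from -0.25 to 0.08 (limma BH-adjusted p = 0.356). LINC00261, the non-coding neighbor of FOXA2, was between 0.148 and 0.340 FPKM.

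HNF4A, a nuclear receptor of the gut and liver program, lies on chromosome 20 at 42984339 to 43061485, plus strand. It was at 0.0964 and 0.165 FPKM in Parent, 0.321 and 0.309 in NC-1 and 0.118 and 0.0349 with miR-4711-5p. The NC-1 libraries were above the other 4, which overlapped. HNF4A was not tested at the filter used. When genes down to a mean of 0.1 FPKM were kept, miR-4711-5p against NC-1 gave a limma BH-adjusted p of 0.0525, and with no filter 0.0186. The other 2 comparisons were not called with either filter. PDX1, the master factor of pancreas development, on chromosome 13 at 28494137 to 28500450, plus strand, was at 0.0507 and 0.348 FPKM in Parent, 0.270 and 0.562 in NC-1 and 0.306 and 0.189 with miR-4711-5p. All 3 groups overlapped, and PDX1 was called with neither filter in any comparison (limma BH-adjusted p from 0.326 to 0.814). HNF4A-AS1 was listed at 0 in all libraries, and PDX1-AS1 and SOX9-AS1 did not exceed 0.0592 FPKM.

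The genes commonly used as a signature of the classical subtype were partly silent. Of 24 such genes, 12 passed the filter, and the other 12 included CDH17, REG4, BTNL8 and CLRN3, which were at or near 0. Against Parent, 9 of the 12 were called lower with miR-4711-5p and none higher, against 24.7% and 18.7% of all genes. The median log2 fold change was -0.62, beside -0.01 over all genes. Against NC-1, 10 were lower and none higher, against 21.2% and 18.4% of all genes, with a median of -0.87 beside 0.0038. Between NC-1 and Parent, 4 were higher and none lower, against 12.1% and 15.1% of all genes, with a median of 0.22 beside -0.01. Equal FPKM sums left 6 called lower against Parent, and median-of-ratios factors from genes of at least 10 FPKM left 7. Without the second Parent library, the number called against Parent was 5 in place of 9. The genes of this list that were called were thus lower with miR-4711-5p. GATA6 and FOXA1 were not called against either control, though FOXA1 was called higher than NC-1 with equal FPKM sums or with the replicate block. FOXA2 was called lower against Parent (log2 fold change -0.46, limma BH-adjusted p = 0.00177) and not called against NC-1.

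CEACAM6, a cell adhesion molecule of mucosal cells, was at 371 and 406 FPKM in Parent, 386 and 432 in NC-1 and 210 and 232 with miR-4711-5p. Its log2 fold change was -0.81 against Parent and -0.88 against NC-1 (limma BH-adjusted p = 0.00021 and 0.00016). ANXA10, a gastric-type annexin, went from 112 and 110 FPKM in Parent and 137 and 135 in NC-1 to 59.2 and 63.5, with log2 fold changes of -0.84 and -1.13 (limma BH-adjusted p = 2.2e-05 and 8.6e-06). NC-1 was above Parent for ANXA10 (log2 fold change 0.29, limma BH-adjusted p = 0.0064). PLA2G10, a secreted phospholipase, was low, at 2.57 and 2.77, 2.22 and 3.62, and 0.843 and 0.689 FPKM in the same order, with log2 fold changes of -1.06 and -1.13 (limma BH-adjusted p = 0.0026 and 0.0022).

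The basal-like signature genes were expressed more widely. Of 25 genes, 24 had a row in the files and 21 passed the filter. Against Parent, 16 were called lower with miR-4711-5p and 2 higher, against 24.7% and 18.7% of all genes. The median log2 fold change was -0.59, beside -0.01 over all genes. Against NC-1, 16 were lower and 1 higher, against 21.2% and 18.4% of all genes, with a median of -0.51 beside 0.0038. Between NC-1 and Parent, 6 were lower and 3 higher, against 15.1% and 12.1% of all genes, with a median of 0.02 beside -0.01. This last balance turned with the scale of the libraries, to 4 lower and 7 higher with equal FPKM sums and to 4 and 4 with median-of-ratios factors from genes of at least 10 FPKM. Both signatures were therefore lower with miR-4711-5p by their medians, and whether they differed from each other was not tested.

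LY6D, a surface protein of stratified epithelium, had the largest decrease of the basal-like list against Parent, and SERPINB3 against NC-1. LY6D was at 89.4 and 87.5 FPKM in Parent, 63.9 and 76.3 in NC-1 and 20.5 and 23.2 with miR-4711-5p. Its log2 fold changes were -1.97 and -1.64 against Parent and NC-1 (limma BH-adjusted p = 9.7e-06 and 2.4e-05). NC-1 was called lower than Parent for LY6D (log2 fold change -0.34, limma BH-adjusted p = 0.033). This call was lost in several settings, equal FPKM sums among them. SERPINB3, a squamous member of the serpin family with a near-identical copy in SERPINB4, went from 43.4 and 46.2 FPKM in Parent and 48.5 and 53.8 in NC-1 to 14.0 and 15.2, with log2 fold changes of -1.55 and -1.74 (limma BH-adjusted p = 9.3e-06 and 8.1e-06). KRT6A was the next against Parent, with the values given above.

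**Figure D4:**
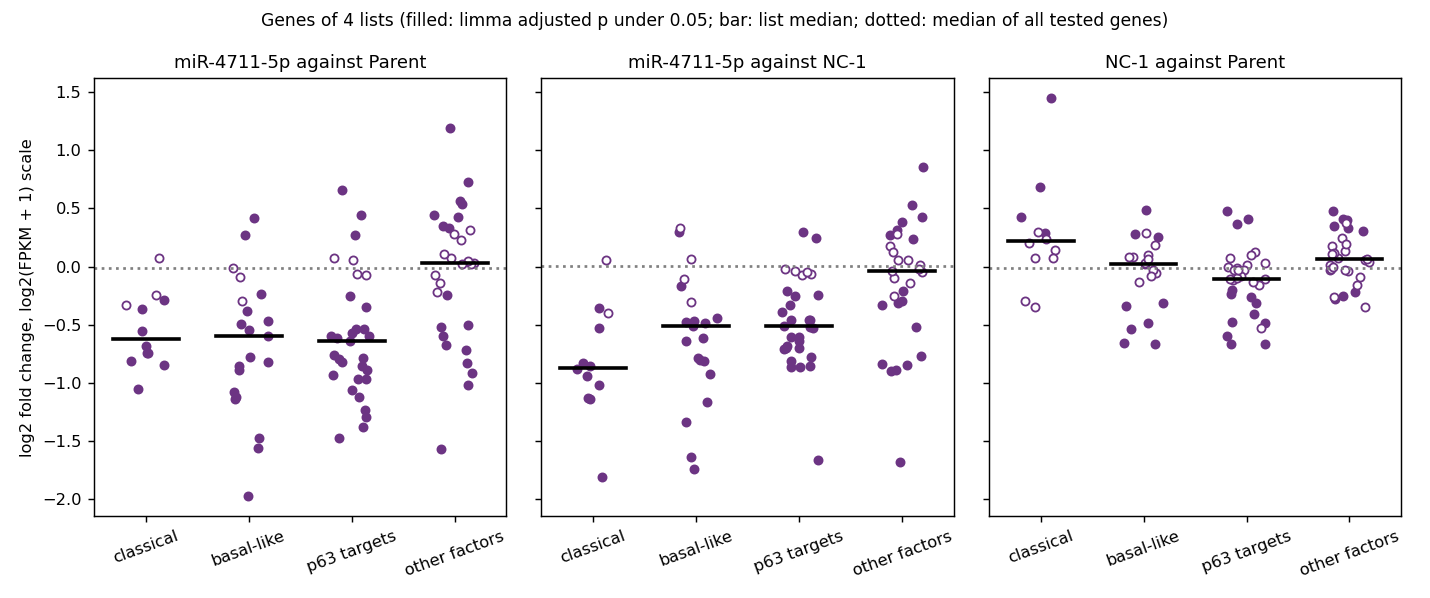
Log2 fold changes on the log2(FPKM + 1) scale of the tested genes of 4 lists (12 classical, 21 basal-like, 31 p63 target genes and 30 other lineage factors) in the 3 comparisons; each dot is a gene, filled when called, with the list median as a bar and the median of all tested genes as a dotted line. The first 3 lists sit below the dotted line with miR-4711-5p, with medians of -0.62, -0.59 and -0.64 against Parent, and the other factors are spread around it.

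Other transcription factors of pancreatic, gastrointestinal and squamous lineages moved in both directions. Of 54 factors, 30 passed the filter. Against Parent, 8 were called higher and 10 lower with miR-4711-5p, against 18.7% and 24.7% of all genes. The median log2 fold change was 0.03, beside -0.01 over all genes, and with equal FPKM sums 12 were higher and 9 lower. Against NC-1, 7 were higher and 11 lower, against 18.4% and 21.2% of all genes, with a median of -0.04 beside 0.0038. Between NC-1 and Parent, 6 were higher and 3 lower (7 and 1 with equal FPKM sums), against 12.1% and 15.1% of all genes. Among the endodermal factors, GATA5, ONECUT1, CDX1, PTF1A, NKX2-2 and NEUROG3 were listed at 0 in every library. Some others were present, with HHEX between 7.82 and 9.55 FPKM, MNX1 between 2.06 and 2.47 and HNF4G between 0.708 and 1.005. HES1, the Notch target, was between 40.5 and 44.4 FPKM. GATA4, the paralog of GATA6, did not exceed 0.524 FPKM.

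SPDEF, a factor of secretory epithelium, was at 14.4 and 13.9 FPKM in Parent, 14.2 and 16.6 in NC-1 and 3.88 and 4.36 with miR-4711-5p. Its log2 fold change was -1.56 against Parent and -1.68 against NC-1 (limma BH-adjusted p = 1.9e-05 and 1.6e-05). SOX15, a SOX factor of squamous epithelium, was at 67.0 and 63.7 FPKM in Parent, 54.4 and 54.9 in NC-1 and 31.4 and 32.01 with miR-4711-5p. Its log2 fold changes were -1.02 and -0.77 (limma BH-adjusted p = 9.3e-06 and 3.3e-05). NC-1 was called lower than Parent for SOX15 (log2 fold change -0.25, limma BH-adjusted p = 0.0089). KLF5, an epithelial zinc-finger factor, had log2 fold changes of -0.91 and -0.89 (limma BH-adjusted p = 8.5e-05 and 0.00012). The rule that named these 3 genes required their miR-4711-5p libraries to lie below the 4 controls.

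SOX4, a progenitor factor of many tissues, was at 13.6 and 12.7 FPKM in Parent, 15.5 and 14.9 in NC-1 and 23.3 and 21.6 with miR-4711-5p, with log2 fold changes of 0.73 and 0.53 (limma BH-adjusted p = 0.00013 and 0.00063). ZBED2, a zinc-finger factor, went from 9.79 and 9.74 FPKM in Parent and 13.2 and 12.0 in NC-1 to 24.9 and 22.4. Its log2 fold changes were 1.19 and 0.86 (limma BH-adjusted p = 2.9e-05 and 0.00016). NC-1 was called higher than Parent for ZBED2 (log2 fold change 0.33, limma BH-adjusted p = 0.016). This call was lost without some single libraries. GATA3, at 2.08 and 2.86, 2.77 and 2.81, and 3.78 and 4.43 FPKM, had log2 fold changes of 0.56 and 0.43 (limma BH-adjusted p = 0.0104 and 0.032). The call of GATA3 against Parent was lost without the second miR-4711-5p library (0.47), and that against NC-1 was lost without either NC-1 library (0.42 and 0.44) and without either miR-4711-5p library (0.52 and 0.34), and also with no filter on FPKM (limma BH-adjusted p = 0.0889) or with a ratio of at least 1.5-fold required. SOX9 rose against both controls. Of the other factors, 6 were called higher against both, and the rule named ZBED2, SOX4 and GATA3 from these. The SOX family members SOX15, named for its decrease, and SOX2 took other courses.

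The genes whose profile over the 6 libraries was most like that of each factor are given as a description, by Pearson's r of log2(FPKM + 1) among the 12040 genes. With 6 points in 3 groups, high values are common, and 58 genes exceeded 0.99 with SOX9 and 23 with TP63. The closest to SOX9 were NRP1 (r = 0.9991), STAT2 (0.9979) and IFI35 (0.9979). The closest to TP63 were REEP4 (0.9958), GNAQ (0.9956) and FKBP1A (0.9955), and the closest to SOX2 were CYB5R3 (0.9971), NOLC1 (0.9970) and RAE1 (0.9968). FOXA2 was most like RAP1GDS1 (0.9962), GTF3C3 (0.9904) and NCAPH (0.9894), FOXA1 most like EEF1E1 (0.9927), RINT1 (0.9886) and KLHL26 (0.9871), and GATA6 most like BBOX1-AS1 (0.9803), SLC52A2 (0.9707) and FAM220A (0.9682).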

How the data were processed

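RNA-seq was performed by the authors with stranded mRNA libraries (TruSeq) and single-end reads, which were mapped to hg19 with TopHat, Bowtie2 and SAMtools. The deposited values are FPKM per gene symbol, calculated by the authors with Cuffnorm (Cufflinks 2.2.1) and not read counts. The paper and the submitters' processing notes give different versions of the mapping tools, and the annotation and the normalization option of Cuffnorm are not given in the sources used here. Control libraries are labelled NC-1.

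From these values, all steps used limma 3.58.1 in R 4.3.3, and Python 3.11.15 with pandas 2.3.3, numpy 2.4.6, matplotlib 3.10.9 and pysam 0.24.0. The 12040 genes whose FPKM averaged 1 or more were fitted on log2(FPKM + 1) with limma (eBayes with a trend), with all 3 groups in 1 fit (3 residual and 4.15 prior degrees of freedom), with two-sided p-values adjusted by Benjamini-Hochberg and called under 0.05. The pseudocount of 1 makes log2 fold changes of low genes too small. Ratios are of mean FPKM without a pseudocount. With 2 libraries a group, the smallest p of an exact permutation test is 0.333, so single-gene p-values rest on the spread shared across genes. Seed matches were searched in 3′ UTRs of GENCODE v44 lifted to GRCh37, to which 10593 tested symbols matched directly and 593 through a RefSeq synonym, and 854 did not match. The miRNA sequence is from RefSeq (GRCh38.p14).

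Named genes are the 8 factors, their non-coding neighbors, and up to 3 increases and 3 decreases per list against Parent, called in the same direction against NC-1 and where neither miR-4711-5p library fell within the range of the 4 controls. Some genes that this rule names are not reported here, but the counts of the lists hold them. TP73, HES1, GATA4, HHEX, MNX1, HNF4G and the genes at 0 were named after their values were seen. The factors, lists and tests were chosen with earlier results of these data known. Simulated data with known changes served to test the fit. The alternatives were other pseudocounts, filters, scalings and fits, a 1.5-fold limit, the replicate block, and each library left out in turn. Relative depth was read from the ratio most common among genes under 0.1 FPKM.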

Additional observations from a re-analysis of the deposited data

How the results depend on the processing

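The 3, 3 and 2 factors called (miR-4711-5p against Parent, then against NC-1, then NC-1 against Parent) stayed within 1.5 times in 47 of 48 repeats; with a ratio of at least 1.5-fold required, 0 were called between NC-1 and Parent. TP63 and SOX9 were called in the same direction against both controls under all 17 settings, at -0.81 to -0.60 and 0.91 to 1.14 (log2) against Parent. That requirement left 1490, 1295 and 501 of all genes in the 3 comparisons, 11, 10 and 3 basal-like genes, 14 p63 target genes against NC-1 and 4 between the controls, 7 and 1 other factors, and 2 classical genes between the controls. Without a filter, 2165 of all genes and 5 basal-like genes were called between the controls. Leaving out single libraries gave 5 to 9 classical genes against Parent and 10 to 18 other factors against NC-1, and, between the controls, 2 to 4 classical genes, 3 to 9 basal-like genes and 3 to 8 other factors. Over all genes it gave 3246 to 5185, 2887 to 4679 and 1457 to 2385, the first 2 lowest without the first miR-4711-5p library and the last without the first Parent library. Signs turned only for differences that were not called. Against Parent, GATA6 turned to -0.000303 under median-of-ratios rescaling and ranged from -0.086 to 0.087 without single libraries, FOXA1 from -0.029 to 0.13 and SOX2 from -0.038 to 0.016, and SOX2 was 0.055 and 0.12 with the 2 scalings added after seeing the data (median-of-ratios over genes of at least 10 FPKM, and equal FPKM sums). Between the controls these scalings gave 0.034 and 0.062 for KLF5, and single libraries moved KLF5 from -0.083 to 0.038, PLA2G10 from -0.19 to 0.33, CEACAM6 from -0.0091 to 0.15 and GATA3 from -0.026 to 0.30. Equal sums moved the median of all genes to 0.11 against Parent, from -0.01. Replicate numbers did not pair the samples (correlations of deviations 0.061, 0.0030 and -0.0089); with the replicate block 3, 4 and 2 factors and 4983, 4564 and 2864 of all genes were called. The causes were not tested. Absolute depth is unknown, which limits HNF4A and PDX1 most.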
